A study of Mus musculus with 16 samples.

Results

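Host transcripts were compared between 3 LA-N-1 xenografts exposed to prolonged cinacalcet (tumors 9, 10 and 11) and 8 xenografts from mice given vehicle (tumors 5 to 12), 11 of the 16 arrays of the series. The 374 genes described were chosen as lists for 5 host compartments, namely stroma (80 genes), vessels (75), myeloid cells (81), lymphoid cells (75) and endoplasmic reticulum (ER) chaperones and their relatives (63), out of 22179 genes that have a probe set naming that gene alone. LA-N-1 is a human MYCN-amplified neuroblastoma line, and here 1 line stands for the disease. Cells were injected under the skin of female athymic Nude-Foxn1 nu/nu mice 4 to 6 weeks old. Cinacalcet, an allosteric activator of the calcium-sensing receptor, or vehicle was given by gavage, cinacalcet at 10 mg/kg per day, from established tumor until excision at 2 cm3. The prolonged group is that of the 3 mice treated longest. Since treatment ended when a tumor reached its final volume, its length was not assigned, and long treatment, slow tumor growth and a long stay in the host cannot be told apart. Each tumor is 1 mouse and 1 array. The Mouse Gene 2.1 ST array reads mouse transcripts, those of host cells within the human tumor, but no array of LA-N-1 cells alone was among the samples, and binding of human transcripts to the mouse probes could not be checked. In bulk RNA, more cells of a type and more RNA per cell cannot be told apart.

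The host part of a xenograft is built by recruited mouse cells. Fibroblasts lay down collagen and remodel it with proteases, endothelial cells line new vessels and mural cells wrap them, and macrophages clear dying cells and release cytokines. Nude mice lack a thymus and therefore most mature T cells, but they keep macrophages, neutrophils, natural killer (NK) cells and B cells, and B cells that become plasma cells secrete immunoglobulin. Any cell with a heavy secretory load depends on chaperones of the ER, which fold new proteins and are induced by the unfolded protein response.

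No host gene passed the genome-wide test. Of the 10135 probe sets left by the filter of the methods on signal and variability, 0 (0.0%) were called at an adjusted p under 0.05 with limma, the smallest adjusted p being 0.252, and 841 had an unadjusted p under 0.05. At an unadjusted p of 0.01 or less, 110 (1.09%) were higher and 25 (0.247%) lower in the prolonged tumors, and 211 and 39 with tumor number as a block. Without the filter, 0 of 22179 genes (0.0%) passed after adjustment. The words higher and lower below refer to log2 signals, on which a difference of 1 is a 2-fold difference, and to an unadjusted p under 0.05 in limma where a count is given. By that measure 825 genes (3.72%) were higher and 678 (3.06%) lower, with a median difference of -0.05 over all genes. Centering each array on its median moved this split to 5.24% and 1.34% and the median to 0.05. An exact permutation test of 3 tumors against 8 cannot go below a p of 0.00606.

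Few genes separated all 3 prolonged tumors from all 8 vehicle tumors. All 3 lay above the highest vehicle tumor for 146 of 22179 genes (0.658%) and below the lowest for 299 (1.35%), and 0 of the 374 compartment genes were among either. Tbc1d9, a Rab GTPase-activating protein, was one of the 146. Its log2 signal was 5.44, 4.53 and 4.33 in tumors 9, 10 and 11 and ran from 3.14 to 4.08 (median 3.50) with vehicle, a log2 difference of 1.24 (standard error 0.26, adjusted p = 0.475 in limma; exact two-sided permutation p = 0.00606, the smallest possible). Bod1, which helps chromosomes attach to the spindle, stood on the other side, at 3.61, 3.23 and 3.01 against 3.62 to 4.60 with vehicle, and the gap between tumor 9 and the lowest vehicle tumor was narrow. Sema5b, a semaphorin named by the study and outside the 374 genes, was also below all controls. It was 3.42, 3.02 and 3.44 against 3.46 to 4.12, with narrow gaps for tumors 9 and 11. Its difference was -0.44 (standard error 0.17, adjusted p = 0.689 in limma; exact two-sided permutation p = 0.0182). Among the 10 higher genes of smallest p that passed the filter, the largest log2 difference was that of Mid1, a microtubule-associated ubiquitin ligase, at 2.21 (standard error 0.51, adjusted p = 0.591 in limma). Mid1 was 7.01 and 7.60 in tumors 9 and 10, but 4.57 in tumor 11, within the vehicle range of 3.42 to 5.17. Slc38a1, a glutamine transporter, was high in tumor 10 (7.89, against 5.22 and 4.32 in tumors 9 and 11 and a vehicle range of 3.47 to 4.77). Gm14403, Erdr1 and Impact, also among these 10 higher genes, had all 3 prolonged tumors above the highest vehicle tumor, as Tbc1d9 did. For Mid1 and Slc38a1 the 3 prolonged tumors were unlike one another, and the compartments were therefore read tumor by tumor.

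A difference is called carried by a tumor here if leaving that tumor out turned its direction or left it more than 1.5 times smaller. Of the 374 compartment genes, 34 were higher and 1 lower (3.72% and 3.06% of all genes were). A fitted difference above 0 was found in 301, against 42.9% of all genes. The members and lists were chosen with earlier results of these data known, so these counts describe the lists and test nothing. Cinacalcet tumor 9 lay above the highest vehicle tumor in 138 of the 374 (13.8% of all genes did), tumor 10 in 35 (11.7%) and tumor 11 in 51 (7.22%). Tumor 9 carried 172 differences, tumor 10 carried 90 and tumor 11 carried 79, and a gene can be carried by more than 1 tumor. Over all 22179 genes these counts were 7737, 6729 and 4809, so only tumor 9 had a larger share among the compartment genes. Without tumor 9 only 11 genes were higher, of which 4 were among the 34. Without tumor 10 there were 62, without vehicle tumor 12 there were 55, and with tumor number as a block there were 72, of which 31 were among the 34. Many of the listed genes are well expressed. In the upper 50% of genes by mean signal 5.85% were higher and 2.85% lower, 55.9% had a difference above 0, and tumors 9, 10 and 11 lay above the highest vehicle tumor in 20.8%, 16.3% and 7.93%.

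**Figure D1:**
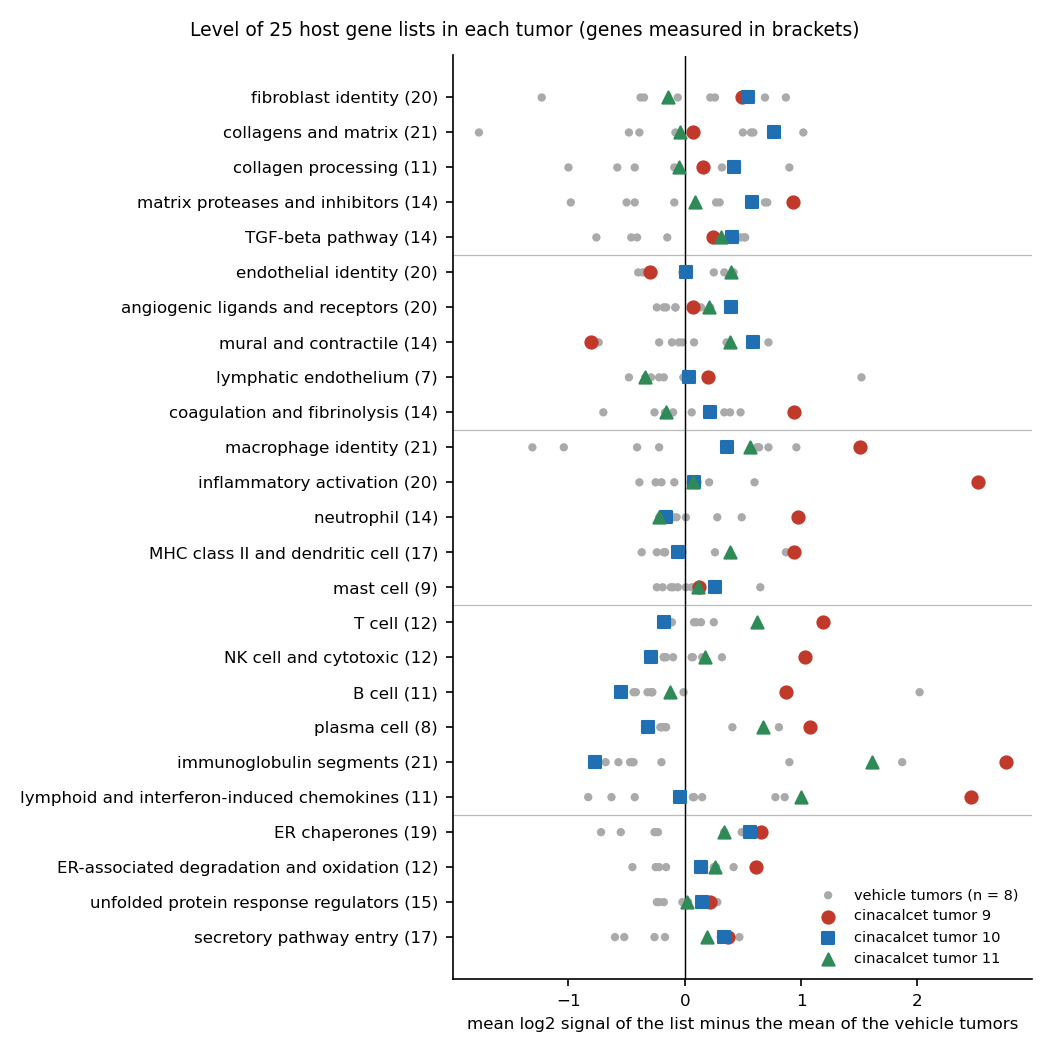
Mean log2 signal of each of the 25 compartment gene lists (rows) minus the mean of the vehicle tumors, in 8 vehicle tumors (gray points) and in cinacalcet tumors 9 (red circles), 10 (blue squares) and 11 (green triangles). Tumor 9 lies far to the right for inflammatory activation (5.64 against at most 3.72 with vehicle) and for immunoglobulin segments (4.85 against at most 3.96), and for ER chaperones the 3 tumors lie close together.

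The macrophage genes were higher in tumor 9 than in any vehicle tumor and within the vehicle range in the other two. The mean log2 signal of 21 macrophage genes was 6.84 in tumor 9, 5.69 in tumor 10 and 5.89 in tumor 11, against 4.02 to 6.29 (median 5.53) with vehicle. Of these 21, 20 had a difference above 0 and 15 had all 3 tumors above the vehicle mean (15.5% of all genes did). The median difference was 0.86, and 0.53 without tumor 9, which carried 14 of the 21 differences. Only 1 gene was higher at an unadjusted p under 0.05, against 3.72% of all genes. That gene was Mertk, the receptor through which macrophages engulf apoptotic cells. Mertk was 5.58, 4.27 and 5.15 in tumors 9, 10 and 11, against 2.85 to 4.60 (median 3.67) with vehicle, so that tumors 9 and 11 lay above every vehicle tumor and tumor 10 inside their range. Its log2 difference was 1.29 (standard error 0.42, adjusted p = 0.666 in limma; exact two-sided permutation p = 0.0364), and it did not rest on a single tumor, at 0.99 without tumor 9, 1.65 without tumor 10 and 1.21 without tumor 11. The defining markers were well measured, and none passed the unadjusted threshold. Csf1r, the receptor of the growth factor CSF1, was 7.23, 6.38 and 6.01 against 4.49 to 6.60, and only tumor 9 was above all vehicle tumors. Adgre1, which encodes F4/80, was 6.53, 5.17 and 5.51 against 2.89 to 5.78, again with only tumor 9 outside. Cd68, a lysosomal glycoprotein, was 8.11, 7.59 and 7.08 against 4.84 to 7.90, and Lyz2, which encodes lysozyme, was 10.87, 9.04 and 9.08 against 6.39 to 9.99. In both only tumor 9 was above the controls.

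The difference in the inflammatory genes rested on tumor 9 more fully than that of the macrophage genes. All 20 had a fitted difference above 0 (median 0.77) and 8 were higher (3.72% of all genes were). For all 20 the difference was carried by tumor 9, which lay above the highest vehicle tumor in 19 (13.8% of all genes). The mean signal of the list was 5.64 in tumor 9, and 3.2 and 3.19 in tumors 10 and 11, close to the vehicle median of 3.10. Without tumor 9 the median difference was -0.04. Il1b, the cytokine interleukin-1 beta, was 7.85 in tumor 9, 4.55 in tumor 10 and 4.85 in tumor 11, against 2.77 to 4.83 (median 4.13) with vehicle, and tumor 11 was above the highest vehicle tumor by a margin well inside the spread between tumors. Its difference was 1.86 (standard error 0.65, adjusted p = 0.677 in limma; exact two-sided permutation p = 0.0121) and 0.81 without tumor 9. Nos2, the inducible nitric oxide synthase, was 6.15 in tumor 9 and 1.51 and 2.21 in tumors 10 and 11, against 1.57 to 2.14. Clec4e, a receptor for necrotic and fungal ligands, was 7.23 against 1.60 and 2.15, and 0.92 to 3.0 with vehicle. Leaving tumor 9 out lowered these differences from 1.45 to 0.02 for Nos2 and from 1.86 to 0.07 for Clec4e. The neutrophil chemokine Cxcl2 (4.43, 1.99 and 1.70 against 1.38 to 2.19) and Il1rn, the antagonist of the interleukin-1 receptor (5.92, 3.54 and 3.68 against 3.07 to 3.93), were likewise above the vehicle range in tumor 9 only. Sod2, the mitochondrial superoxide dismutase, was high in tumor 9 (7.73) but also above all vehicle tumors in tumor 10 (5.93), while tumor 11 (5.12) lay inside the vehicle range of 4.07 to 5.22. Saa3, an acute-phase protein of macrophages and fibroblasts, was 9.82 in tumor 9, level with the highest vehicle tumor in tumor 10 (6.75) and below the lowest in tumor 11 (3.67, against 3.85).

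Neutrophil genes were near background in most tumors. Over 15 genes that neither tumor nor stroma should express, the median signal was 1.44 and the 95th percentile 2.28. The 14 neutrophil genes averaged 1.52 to 2.23 with vehicle, 1.58 and 1.52 in tumors 10 and 11, and 2.71 in tumor 9. Tumor 9 was above every vehicle tumor for 7 of the 14 (13.8% of all genes). S100a8, an abundant calcium-binding protein of neutrophils, was 2.93, 0.88 and 0.50 against 0.62 to 2.87, and so did not set tumor 9 apart from vehicle tumor 9, the highest of the controls. Cxcr2, the receptor for neutrophil chemokines, did so clearly, at 5.47 against 2.47, 2.45 and a vehicle range of 2.32 to 3.28. Genes of antigen presentation by MHC class II and of dendritic cells were mixed. Of 17, 3 were higher (3.72% of all genes were). H2-Eb1, an MHC class II chain, was 7.23, 4.47 and 5.57 in tumors 9, 10 and 11, against 3.94 to 5.20. H2-DMa, which helps to load peptides on class II molecules, was 5.11, 3.62 and 3.86 against 3.02 to 3.97, and Pla2g2d, a secreted phospholipase of dendritic cells, was 7.84, 5.25 and 5.41 against 3.58 to 5.98. All 3 were highest in tumor 9, and H2-Eb1 was also above the vehicle range in tumor 11. Siglech, a marker of plasmacytoid dendritic cells, pointed the other way, at 1.31, 1.61 and 1.54 against 1.16 to 2.71, all of them near background. Mast cell genes had a median difference of 0.01 and 0 of 9 were higher or lower. In all, 13 of 81 myeloid genes were higher and 0 lower (3.72% and 3.06% of all genes were). This count was 1 without tumor 9, 22 without tumor 10 and 21 with tumor number as a block.

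**Figure D2:**
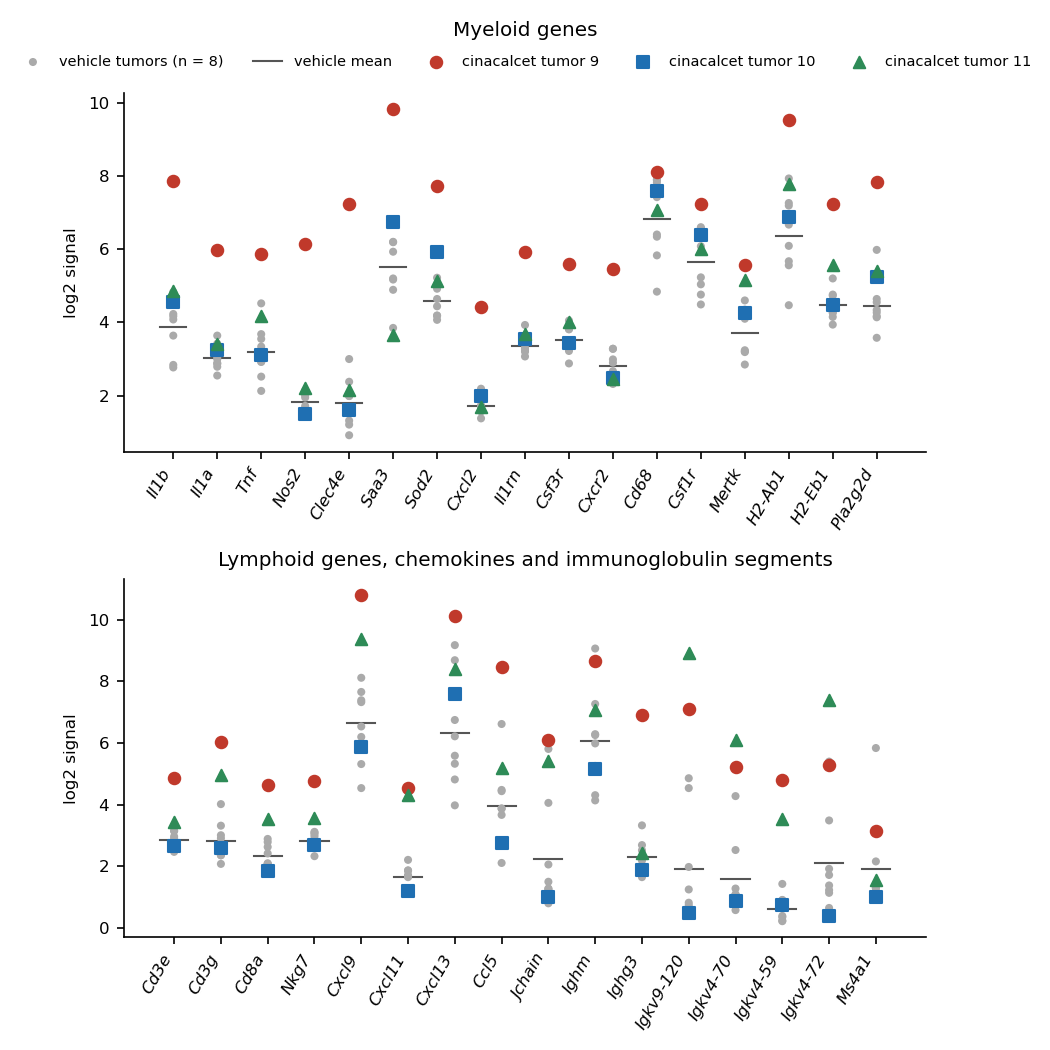
Log2 signal of myeloid genes (upper panel) and lymphoid genes (lower panel) in 8 vehicle tumors (gray points, with a line at their mean) and in cinacalcet tumors 9 (red circles), 10 (blue squares) and 11 (green triangles). Tumor 9 lies far above the vehicle tumors for Nos2 (6.15) and Clec4e (7.23), whereas Igkv4-59 and Cxcl11 are high in tumors 9 and 11 and low in tumor 10.

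Among lymphoid genes tumor 9 was highest, tumor 11 lay between and tumor 10 was lowest. The mean of the 75 genes was 4.14, 2.0 and 3.18 in tumors 9, 10 and 11, against 2.03 to 3.22 with vehicle. By this mean only tumor 9 was above the vehicle tumors, and tumor 11 was within their range. The median difference from the vehicle mean over 75 genes was 1.51 in tumor 9, 0.38 in tumor 11 and -0.43 in tumor 10. Tumor 9 was above the highest vehicle tumor in 44 genes (13.8% of all genes were) and tumor 11 in 23 (7.22%). Tumor 10 was above it in 2 (11.7%) and below the lowest vehicle tumor in 16 (14.0%). In all, 10 genes were higher and 0 lower (3.72% and 3.06% of all genes were). The count was 2 without tumor 9, 34 without tumor 10 and 4 without tumor 11. It was 6 without vehicle tumor 8, 10 or 11, 17 without vehicle tumor 12 and 21 with tumor number as a block.

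T cell genes were measurable in these athymic hosts, but weakly. The 12 genes averaged 2.06 to 2.50 with vehicle, 3.44 in tumor 9, 2.07 in tumor 10 and 2.87 in tumor 11, so that tumors 9 and 11 lay above every vehicle tumor and tumor 10 at the lower edge. Cd3g, a chain of the T cell receptor complex, was 6.03, 2.58 and 4.97 in tumors 9, 10 and 11, against 2.08 to 4.02 (median 2.70) with vehicle. Its difference was 1.71 (standard error 0.73, adjusted p = 0.689 in limma; exact two-sided permutation p = 0.0303). Cd3e, another chain of that complex, showed the same order, at 4.87, 2.67 and 3.44 against 2.47 to 3.15. Cd8a, the coreceptor of cytotoxic T cells, was 4.63, 1.86 and 3.55 against 1.83 to 2.89, and its partner Cd8b1 was 3.10, 1.55 and 3.19 against 1.83 to 2.53. For both, tumors 9 and 11 lay above and tumor 10 near or below the controls. The cytotoxic granule protein Nkg7 followed, at 4.78, 2.69 and 3.58 against 2.33 to 3.12. Of the NK cell markers, Ncr1 (2.52, 1.68 and 1.46 against 1.39 to 2.69) and Klrb1c (0.93, 0.92 and 0.62 against 0.72 to 2.18) stayed at background levels in most tumors, and 0 of 12 NK and cytotoxic genes were higher or lower.

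Immunoglobulin genes gave the largest differences of the comparison, and these came from tumors 9 and 11. The 21 segments averaged 4.85 in tumor 9, 3.70 in tumor 11 and 1.32 in tumor 10, which was below the lowest vehicle value of 1.41. The vehicle median was 1.64, and the highest vehicle values were 3.96 in tumor 12 and 2.99 in tumor 9. Of the 21, 20 had a difference above 0 (42.9% of all genes did) and 5 were higher (3.72%). The median of 1.14 fell to 0.20 without tumor 9 and became 1.97 without tumor 10. The largest difference of the 374 genes, 3.6 (standard error 1.37), was that of a variable segment of the kappa light chain, of the Igkv9 family, which was 7.12 and 8.91 in tumors 9 and 11 and 0.47 in tumor 10, against 0.41 to 4.86. Igkv4-59, another kappa segment that was at background in all vehicle tumors (0.22 to 1.43), was 4.81 in tumor 9, 0.75 in tumor 10 and 3.54 in tumor 11. Its difference was 2.40 (standard error 0.57, adjusted p = 0.591 in limma) and 3.54 without tumor 10. The adjusted p was then 0.00142 (limma, 2 tumors against 8). Since tumor 10 is the one where this segment was low, that p does not show a group difference. Other segments were highest in 1 of these tumors. Igkj1, a joining segment, was 7.60, 1.59 and 4.25 in tumors 9, 10 and 11, against 0.72 to 4.30 with vehicle. Ighg3, the constant region of an IgG class, was 6.91, 1.87 and 2.43 against 1.65 to 3.33. Igkv4-72 was highest in tumor 11, at 7.41, followed by vehicle tumors up to 5.40 and tumor 9 at 5.29. Which segment was high thus differed between tumors 9 and 11. Kappa segments are similar in sequence, and signal shared between them was not separated.

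Genes that define the antibody-making cells were less clear than the immunoglobulin segments. Jchain, which joins secreted IgA and IgM, was 6.10 in tumor 9, 5.41 in tumor 11 and 1.02 in tumor 10, and ran from 0.80 to 5.81 (median 1.39) with vehicle, so that both groups held high and low tumors. Mzb1, an ER protein of plasma cells, was 3.30, 2.13 and 2.90 in tumors 9, 10 and 11, all within the vehicle range of 1.69 to 3.84. Tnfrsf17, the plasma cell receptor BCMA, was at background in all 11 tumors (0.75 to 1.28). The B cell markers were highest in vehicle tumor 9. Ms4a1, which encodes CD20, was 5.84 in that tumor and 3.15, 1.01 and 1.55 in cinacalcet tumors 9, 10 and 11, with a vehicle median of 1.30. Of 11 B cell genes 0 were higher or lower, with a median difference of -0.11.

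Chemokines that attract lymphocytes followed tumors 9 and 11 as well. The mean of 11 such genes was 6.58, 4.08 and 5.12 in tumors 9, 10 and 11, against 3.29 to 4.98 (median 4.20) with vehicle. Cxcl9, induced by interferon gamma, was 10.80 and 9.39 in tumors 9 and 11 but 5.87 in tumor 10, against 4.54 to 8.12. Cxcl11, a ligand of the same receptor, CXCR3, was 4.55 and 4.32 against 1.19 in tumor 10 and 1.15 to 2.21 with vehicle. Its difference was 1.68 (standard error 0.52, adjusted p = 0.666 in limma; exact two-sided permutation p = 0.0485) and 2.76 without tumor 10. The adjusted p of 0.00196 without that tumor (limma, 2 tumors against 8) again rests on leaving out the low tumor, and does not show a group difference. Cxcl13, the chemokine that draws B cells into follicles, was the exception. At 10.11, 7.58 and 8.40 all 3 tumors lay above the vehicle median of 5.91, although vehicle tumors reached 9.18, and its difference of 2.38 (standard error 1.08, adjusted p = 0.689 in limma) was carried by no tumor alone. Ccl5, released by T and NK cells, was 8.48, 2.75 and 5.20 against 2.11 to 6.62, and without tumor 9 no difference was left (1.5 before). Interferon response genes, a list outside the compartments, averaged 4.53, 3.19 and 3.81 against 2.69 to 3.95. Of these 16, 9 were above every vehicle tumor in tumor 9, 0 in tumor 10 and 5 in tumor 11 (13.8%, 11.7% and 7.22% of all genes were).

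Stromal genes did not separate the groups. Of 80 genes 0 were higher and 1 was lower, and the median difference of 0.30 was 0.12 without tumor 10. With tumor number as a block, 8 were higher. Vehicle tumor 5 lay lowest of all tumors, at a mean of 3.71 over the 80 genes, and the other vehicle tumors reached 5.70, against 5.30, 5.50 and 4.95 in tumors 9, 10 and 11. Dcn, the collagen-binding proteoglycan decorin, illustrates the spread. It was 8.45, 7.82 and 6.57 in tumors 9, 10 and 11 and ran from 2.85 to 9.14 (median 6.79) with vehicle, so that its difference of 0.86 (standard error 0.96, adjusted p = 0.799 in limma) was smaller than its error. Pdgfra, the fibroblast receptor for platelet-derived growth factor, was 6.32, 5.55 and 4.15 against 2.20 to 6.17. Vim, the intermediate filament vimentin, was 9.95, 9.87 and 9.59 against 8.32 to 10.14, with the 3 tumors close together and within the vehicle range.

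Collagen and matrix genes leaned towards tumor 10. Of 21, 20 had a difference above 0, with a median of 0.30, and 18 of the 21 were carried by tumor 10, without which the median was 0.09. Tumor 10 stood 0.80 above the vehicle mean at the median gene, against 0.06 for tumor 9 and 0.01 for tumor 11. The mean of the list in tumor 10, 6.78, was nevertheless within the vehicle range of 4.24 to 7.03. Tumor 10 was above the highest vehicle tumor in only 2 of the 21, Tnc and Fmod (11.7% of all genes were). Col1a1, the main chain of fibrillar collagen, was 9.15, 10.02 and 8.94 in tumors 9, 10 and 11, against 6.56 to 10.15 (median 9.27) with vehicle. Its difference was 0.42 (standard error 0.63, adjusted p = 0.845 in limma) and 0.09 without tumor 10. Col3a1, which forms mixed fibrils with it, was 7.86, 8.38 and 7.02 against 4.30 to 8.53. In neither gene did a prolonged tumor leave the vehicle range. Tnc, tenascin C of remodeled matrix, was 5.99, 6.91 and 5.31 against 3.16 to 6.82, and Fmod, a proteoglycan that shapes collagen fibrils, was 3.62, 5.04 and 3.81 against 2.95 to 4.77, with only tumor 10 above the controls. Fbln1, an elastic fiber protein, was 6.19 in tumor 10 and 4.35 and 3.10 in tumors 9 and 11, against 2.92 to 4.39, and its difference went from 0.93 to 0.11 without tumor 10.

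Proteases of the matrix did not rest on tumor 10 alone. All 14 protease and inhibitor genes had a difference above 0 (median 0.40), of which tumor 9 carried 5, tumor 10 carried 6 and tumor 11 carried 0. Tumor 9 was above the highest vehicle tumor in 5 of the 14 (13.8% of all genes did). Mmp3, which degrades proteoglycans and activates other proteases, was 6.25, 4.63 and 2.89 in tumors 9, 10 and 11, against 1.51 to 5.08. Mmp2, a gelatinase of fibroblasts, was 7.47, 6.92 and 6.13 against 3.75 to 7.27, and Timp3, a protease inhibitor bound to matrix, was 6.15, 4.78 and 4.91 against 3.70 to 5.63. In each only tumor 9 was above the controls. Tgfb1, the growth factor that drives fibroblast activation, lay close together in the 3 tumors at 6.50, 6.27 and 6.25, above the vehicle median of 5.68 but within the range of 4.80 to 6.64. Of the genes of collagen processing, Plod2, which hydroxylates lysines of collagen for cross-linking, was the only lower gene among the 374. It was 4.10, 4.47 and 4.23 in tumors 9, 10 and 11, against 4.21 to 5.59 (median 4.73), a difference of -0.58 (standard error 0.23, adjusted p = 0.689 in limma; exact two-sided permutation p = 0.0545), and its direction held without each of the 3 tumors. P4ha1, which hydroxylates prolines, was higher on average by 0.62 (standard error 0.35), at 6.06, 5.78 and 5.66 against 4.47 to 6.05.

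Vessel genes as a whole differed little from the controls. Over 75 genes 2 were higher and 0 lower (3.72% and 3.06% of all genes were), with a median difference of 0.14. The count higher was 5 with tumor number as a block, 5 without tumor 9 and 4 without tumor 11. Tumor 9 lay below the lowest vehicle tumor in 16 of these genes and above the highest in 10, close to its shares over all genes (16.7% and 13.8%). Tumors 10 and 11 lay above the highest in 12 each (11.7% and 7.22% of all genes did). The endothelial markers Pecam1, an adhesion molecule, and Cdh5, the cadherin of endothelial junctions, were highest in tumor 11. Pecam1 was 5.89, 6.30 and 7.06 in tumors 9, 10 and 11, against 5.60 to 6.84, and Cdh5 was 6.94, 8.02 and 8.49 against 6.55 to 8.32. Tie1, an endothelial receptor kinase, was 3.04, 3.15 and 3.95 against 3.07 to 3.60. Tumor 11 was above all vehicle tumors for these 3 and for 7 of 20 endothelial genes in all (7.22% of all genes). Tumor 9 was below all vehicle tumors for 5 of the 20, against 16.7% of all genes. The angiopoietin receptor Tek was 1.31 in tumor 9, against 1.90 to 3.40 with vehicle. With tumor 11 left out, the median of the endothelial list was -0.13, and with tumor 9 left out 0.20, against 0.04 for all 3.

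Mural cell genes differed between the 3 prolonged tumors. The 14 genes averaged 4.06 in tumor 9, which was below every vehicle tumor, and 5.46 and 5.26 in tumors 10 and 11, against 4.13 to 5.59 (median 4.84). Rgs5, a marker of pericytes, was 6.83 in tumor 9 and 9.34 and 9.43 in tumors 10 and 11, against 7.35 to 8.78. All 3 tumors were thus outside the vehicle range, but on opposite sides, and the difference of the means was only 0.26 (standard error 0.45, adjusted p = 0.871 in limma). Acta2, smooth muscle actin, was 7.06, 9.21 and 8.44 against 6.75 to 9.19, Notch3, a receptor of mural cells, was 3.62, 4.98 and 4.42 against 3.37 to 4.77, and Abcc9, a channel subunit of pericytes, was 3.61, 5.35 and 5.65 against 4.10 to 5.56. Tumor 9 had the lowest value of the 3 for each.

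The 2 higher vessel genes were both in the list of angiogenic ligands and receptors. With 2 of 75 genes higher, against 3.72% of all genes, this is a description of 2 genes only. Nrp2, a coreceptor for semaphorins and VEGF, was 7.22, 6.27 and 5.50 in tumors 9, 10 and 11, against 4.68 to 5.86 (median 5.52) with vehicle, so that tumors 9 and 10 were above all controls and tumor 11 near their median. Its difference of 0.99 (standard error 0.36, adjusted p = 0.678 in limma) was carried by tumor 9, without which it was 0.55. Pdgfb, the endothelial factor that recruits pericytes, was 4.48, 4.35 and 4.59 against 3.40 to 4.41, a difference of 0.50 (standard error 0.22, adjusted p = 0.689 in limma; exact two-sided permutation p = 0.0424) that no tumor carried alone. Of the Notch ligands, Jag1 was 4.11, 5.11 and 4.42 against 2.29 to 4.60 and Jag2 was 2.43, 3.46 and 2.25 against 1.86 to 2.64, with only tumor 10 above the controls for both. The Notch target Hey2 was 2.33, 3.11 and 2.75 against 1.80 to 2.94 and again highest in tumor 10. Hey1, a related target, was 2.22, 3.53 and 3.21 against 2.75 to 3.85, with tumor 9 below all controls. Vegfb, a growth factor of the VEGF family, was 4.33, 4.55 and 4.52 against 4.52 to 4.91 (difference -0.27, standard error 0.13). Coagulation genes were highest in tumor 9, which was above all controls in 5 of 14 (13.8% of all genes). F10, which encodes clotting factor X, was 5.91 in tumor 9 and 2.70 and 3.26 in tumors 10 and 11, against 2.82 to 3.61, and without tumor 9 its difference of 0.87 became -0.11. Procr, the receptor of activated protein C, was 4.83, 2.54 and 2.49 against 1.84 to 3.38. Serpinb2, an inhibitor of plasminogen activators made by activated macrophages too, was 5.77, 2.69 and 1.56 against 1.03 to 4.67.

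**Figure D3:**
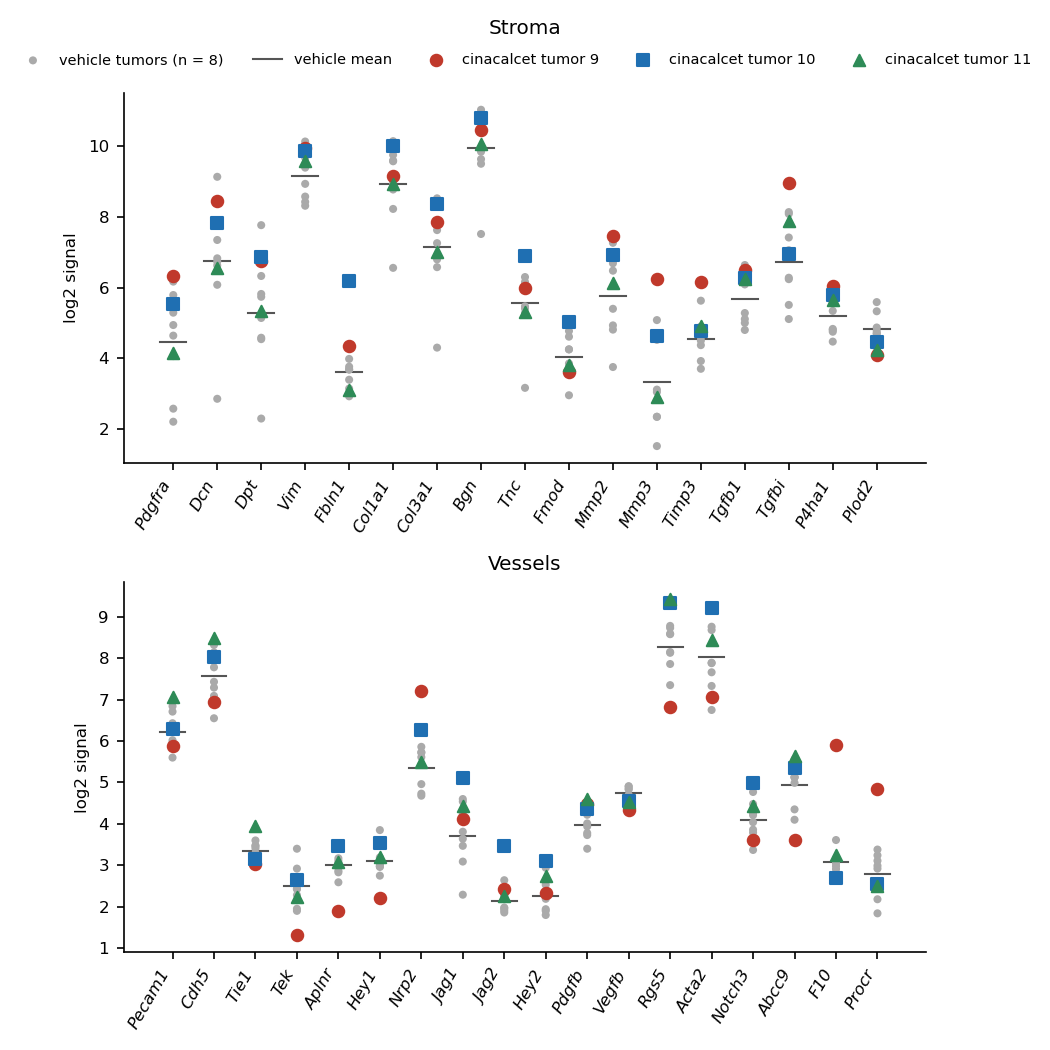
Log2 signal of stromal genes (upper panel) and vessel genes (lower panel) in 8 vehicle tumors (gray points, with a line at their mean) and in cinacalcet tumors 9 (red circles), 10 (blue squares) and 11 (green triangles). Collagens overlap between the groups (Col1a1 8.94 to 10.02 against 6.56 to 10.15), and Rgs5 is below all vehicle tumors in tumor 9 and above them in tumors 10 and 11.

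ER chaperones were on average higher in each of the 3 prolonged tumors than in the mean of the vehicle tumors. Of 19 chaperone genes, 19 had a difference above 0 (42.9% of all genes did) and 5 were higher at an unadjusted p under 0.05 (3.72%). In 16 all 3 tumors lay above the vehicle mean (15.5% of all genes). The median difference was 0.50, and 0.37, 0.50 and 0.55 without tumors 9, 10 and 11. The mean of the list was 5.65, 5.55 and 5.33 in tumors 9, 10 and 11. With vehicle it ran from 4.27 to 5.56 (median 5.05), so the groups overlapped. Vehicle tumors 12 (5.56), 9 (5.48), 6 (5.33) and 8 (5.33) were at the level of the prolonged tumors, and vehicle tumors 5 (4.27), 11 (4.44), 10 (4.73) and 7 (4.76) were below it. The same 4 low vehicle tumors had the highest medians over all probe sets, 1.74 to 1.85, against 1.59 to 1.64 in the other 4 and 1.58, 1.60 and 1.66 in tumors 9, 10 and 11. In the macrophage list these 4 were the lowest vehicle tumors too, at 4.02 to 5.11. The part of this in the chaperone difference was not tested. After quantile normalization, 3 of the 63 genes of this compartment were higher in place of 9, and its median difference was 0.14 in place of 0.31.

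Calr, which encodes calreticulin, a calcium-binding chaperone for glycoproteins, had the lowest p of the list. It was 7.68, 8.10 and 7.18 in tumors 9, 10 and 11, against 5.55 to 7.28 (median 6.66) with vehicle, a difference of 1.06 (standard error 0.41, adjusted p = 0.682 in limma; exact two-sided permutation p = 0.0424). Hspa5, which encodes BiP, the main Hsp70 of the ER and sensor of unfolded proteins, was 6.44, 6.50 and 6.29 against 5.57 to 6.40 (median 5.89), a difference of 0.50 (standard error 0.22, adjusted p = 0.689 in limma; exact two-sided permutation p = 0.0303). For both genes tumors 9 and 10 were above all controls and tumor 11 just inside their range. Pdia3, a disulfide isomerase that works with calreticulin, was 7.33, 7.34 and 7.15 against 5.94 to 7.21 (difference 0.55). Dnajc3, a cochaperone of BiP that also restrains the kinase PERK, was 5.98, 5.49 and 5.57 against 2.57 to 5.74 (difference 1.22). Creld2, a secreted ER stress protein, was 5.07, 4.77 and 4.45 against 3.28 to 4.96 (difference 0.71). These are the 5 higher genes, and the difference of none of them was carried by a single tumor. Hsp90b1, the Hsp90 of the ER, was 8.63, 8.54 and 8.45 against 6.60 to 8.68, and the lectin chaperone Canx was 7.73, 7.37 and 7.32 against 6.52 to 7.61. Pdia6 and P4hb, a pair of disulfide isomerases, had differences of 0.63 and 0.73. The smallest difference of the list was that of Fkbp11, a prolyl isomerase, at 0.15.

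**Figure D4:**
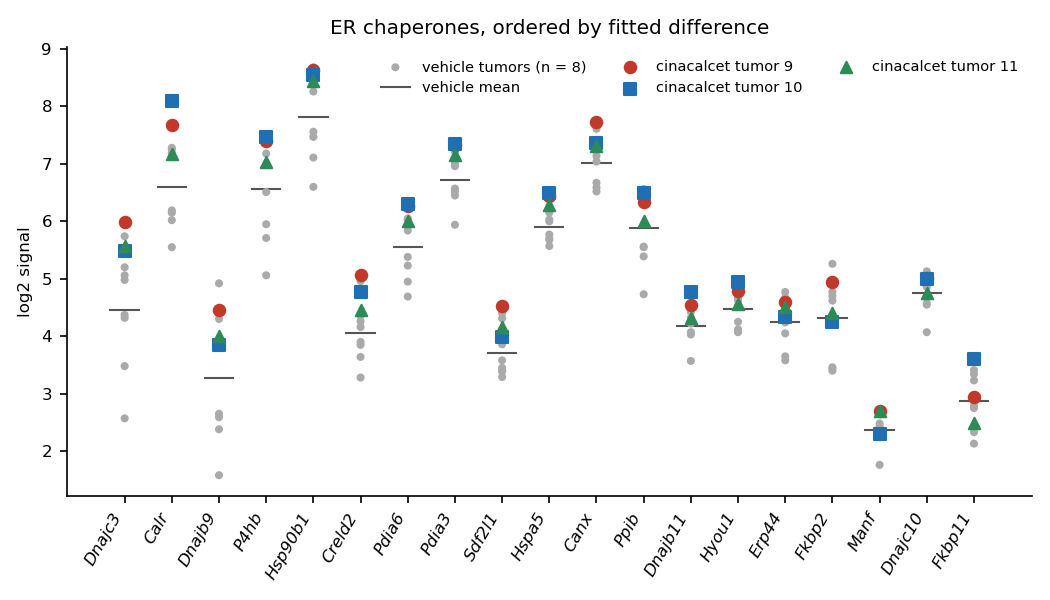
Log2 signal of 19 ER chaperone genes, ordered by fitted difference, in 8 vehicle tumors (gray points, with a line at their mean) and in cinacalcet tumors 9 (red circles), 10 (blue squares) and 11 (green triangles). The 3 prolonged tumors lie at or near the top of the vehicle range for Hspa5 (6.29 to 6.50 against 5.57 to 6.40) and Calr (7.18 to 8.10 against 5.55 to 7.28), and inside it for Fkbp2 and Erp44.

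The promoters of the chaperones are shown since some of these genes are known to hold the ER stress response element (ERSE), and the rule that chose them did not use sequence. The motif searched was CCAAT, then 9 bases of any kind (N), then CCACG, on both strands, in 300 bases around the start site (250 before and 50 after it) as given by RefSeq for GRCm38.p6. It was found for 37 of 27025 symbols (0.137%), and for 7 of the 17 chaperones with a promoter in that set. A match is a description and not a test of binding. Each stretch has 55 bases, read 5′ to 3′ on the strand of the gene, with the outer blocks of the element in capitals (CGTGG and ATTGG where it lies in the opposite orientation).
Hspa5: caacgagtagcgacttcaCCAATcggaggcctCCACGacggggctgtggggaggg
Hsp90b1 distal: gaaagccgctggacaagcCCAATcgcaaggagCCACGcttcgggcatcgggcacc
Hsp90b1 proximal: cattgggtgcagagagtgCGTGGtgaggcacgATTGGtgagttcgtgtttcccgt
Calr: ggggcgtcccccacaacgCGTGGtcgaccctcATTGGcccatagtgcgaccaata
Canx: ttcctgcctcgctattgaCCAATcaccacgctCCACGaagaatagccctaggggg
Pdia6: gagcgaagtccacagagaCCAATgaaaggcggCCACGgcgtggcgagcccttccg
Dnajc3: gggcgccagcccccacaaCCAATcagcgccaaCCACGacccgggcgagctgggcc
Creld2: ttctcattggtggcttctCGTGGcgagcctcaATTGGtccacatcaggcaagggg

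All of these lie upstream of the annotated start site. In the stretch of Hspa5 (chr2:34772007-34772061, plus strand) the element itself begins 65 bases before it, and in those of Hsp90b1 (chr10:86705620-86705674 and chr10:86705515-86705569, minus strand) it begins 212 and 107 bases before it. In the other stretches the element begins at 162 bases for Calr (chr8:84847057-84847111, minus strand), 145 for Canx (chr11:50325782-50325836, minus strand), 98 for Pdia6 (chr12:17266473-17266527, plus strand), 105 for Dnajc3 (chr14:118937809-118937863, plus strand) and 126 for Creld2 (chr15:88819502-88819556, plus strand). The 7 chaperones with the element had a median log2 difference of 0.71 (0.45 to 1.22), and the 10 without it one of 0.38 (0.15 to 0.83), a comparison described without a test. The ranges overlap, and Pdia3, higher at an unadjusted p under 0.05, has no such match in this window. The element also occurred for 2 of 11 genes of ER-associated degradation and oxidation, for 0 of 13 regulators of the unfolded protein response and for 0 of 11 genes of secretory pathway entry.

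The regulators of the unfolded protein response did not follow the chaperones. Of 15 such genes 1 was higher, with a median difference of 0.10, and tumor 11 was below the lowest vehicle tumor in 4 (10.7% of all genes were). Only 4 of the 15 passed the filter on signal and variability, against 13 of 19 chaperones, which limits this contrast. Xbp1, whose spliced form induces chaperones, was 5.90, 4.84 and 5.34 in tumors 9, 10 and 11, against 3.83 to 5.55 (difference 0.57, standard error 0.38). The array does not tell its spliced from its unspliced form. Ddit3, which encodes the pro-apoptotic factor CHOP, was 3.48, 3.36 and 3.05 against 2.98 to 3.74, and Atf4, the factor induced through PERK, was 5.19, 5.37 and 4.89 against 4.98 to 5.49, with differences of -0.13 and -0.01. Their targets Trib3 (0.78, 1.17 and 1.57 against 0.67 to 1.39) and Chac1 (1.28, 1.54 and 1.41 against 1.20 to 2.28) were at background. The higher regulator was Mbtps1, the protease that releases ATF6, at 4.45, 5.09 and 4.33 against 3.69 to 4.61, and it was carried by tumor 10. Of 17 genes that bring proteins into the ER, 15 had a difference above 0 and 3 were higher. These were Spcs3, of the signal peptidase (6.22, 5.66 and 5.83 against 4.40 to 5.95), Tmed9, of vesicle transport (3.93, 4.20 and 3.89 against 2.48 to 3.93), and Ssr1, of the translocon (5.99, 6.65 and 6.10 against 4.59 to 6.28). None of the 3 was carried by a single tumor. Genes of ER-associated degradation and oxidation had 0 of 12 higher or lower and a median of 0.28. Over the 63 genes, 9 were higher (3.72% of all genes were), against 17 with tumor number as a block, 2 without tumor 9 and 3 without tumor 10. The count was 5 without vehicle tumor 5, 7 or 10 and 16 without vehicle tumor 12.

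**Figure D5:**
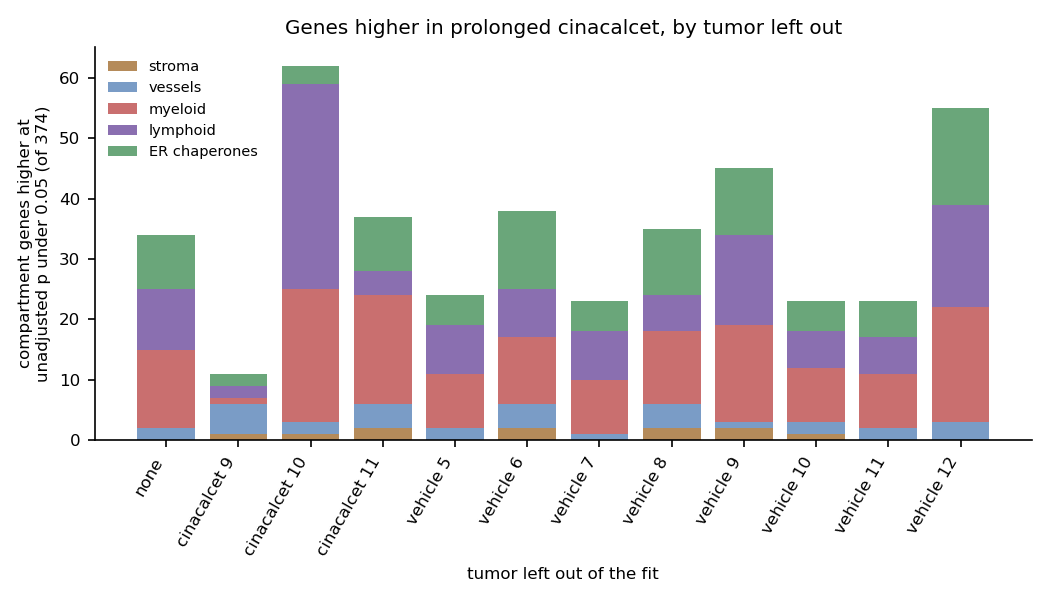
Number of the compartment genes (stacked by compartment) that were higher in the prolonged tumors at an unadjusted p under 0.05 in limma, with all tumors and with each cinacalcet or vehicle tumor left out. The bar falls from 34 to 11 genes without cinacalcet tumor 9 and reaches 62 without cinacalcet tumor 10, mainly through lymphoid genes (34).

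The effect of leaving out a tumor thus differed between compartments, but the myeloid and lymphoid medians both fell most without tumor 9. The myeloid median of 0.50 was 0.07 without tumor 9, 0.77 without tumor 10 and 0.79 without tumor 11, and the lymphoid median of 0.47 was 0.05, 0.82 and 0.52. The stromal median of 0.30 was 0.34, 0.12 and 0.40, the vessel median of 0.14 was 0.20, 0.05 and 0.01, and the ER median of 0.31 was 0.28, 0.33 and 0.40. Tumor 9 carried 55 of 81 myeloid and 53 of 75 lymphoid differences, tumor 10 carried 39 of 80 stromal differences, and no tumor carried more than 14 of 63 in the ER compartment. For comparison, tumors 9, 10 and 11 carried 7737, 6729 and 4809 of the differences of all 22179 genes. Other features of the 3 arrays differed as well. Genes silent in tumor and stroma averaged 1.17 in tumor 9, below the vehicle range of 1.24 to 1.73, and 1.32 and 1.54 in tumors 10 and 11. Tumor 10 had signal for genes of the sympathetic neuron and neuroblastoma lineage, with a mean of 3.76 over 14 genes against 2.09 to 2.61 with vehicle and 9 of the 14 above every vehicle tumor (Th, tyrosine hydroxylase, was 6.57 against 1.13 to 1.95). Tumors 9 and 11 were at 2.12 and 2.28. The part of these in the results for each tumor was not tested. Against the 4 tumors with shorter treatment, 0 of 40543 probe sets passed an adjusted p under 0.05 in limma (smallest 0.659, with 2237 at an unadjusted p under 0.05), so no gene was shown to differ between prolonged and shorter treatment.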

How the data were processed

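RNA of 16 xenografts was hybridized to Mouse Gene 2.1 ST arrays. The deposited values are log2 signals of 40543 probe sets, normalized by RMA. Limma 3.24 and R 3.2 are named in the submitters' processing notes. Of the probe sets, 23448 name 1 gene, 1619 several and 15476 are unnamed here. Of a gene's single-gene probe sets, the one of highest mean was used. Groups follow the titles and the methods, with cinacalcet tumor 6 left out as there. The methods give 6 dosing days a week and the labels daily dosing.

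Vehicle (8), prolonged (3) and shorter (4) tumors were fitted together on the log2 values with limma 3.58.1 in R 4.3.3 (Benjamini-Hochberg adjustment), the shorter tumors adding only to the estimate of the spread. The filter kept the upper 50% of probe sets by mean signal and, of those, the upper 50% by SD. List members and single genes were read from the fit without it, since a filter would keep members through the group where they are high. The script was tested on simulated data. Single values were also compared by exact two-sided permutation. All p-values rest on the spread between tumors, and few arrays limit the precision. A list's level is the mean of its genes, and counts within lists carry no test. Named genes were drawn from several sets, and not every gene of a set is described. The first set is the 10 higher and 10 lower of smallest p in the fit with the filter. For each compartment it is the 5 higher and 3 lower of smallest p in the fit without it. For each tumor it is the 6 members farthest above and the 3 farthest below the vehicle tumors. The defining markers and the genes the study names form further sets. A few further members of each list were chosen after their values were seen. Of the study's genes, Angpt1, Angpt2, Kdr and Mmp9 are not described, and none of them was higher or lower. The members and lists were chosen with earlier results of these data known.

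Labels share tumor numbers between groups, and no source used here says that a number pairs tumors. Deviations from the group means correlated at 0.29, 0.12 and 0.18 between same-numbered prolonged and vehicle tumors (9, 10 and 11). For cinacalcet tumors 9 and 10 the same-numbered vehicle tumor correlated best, but for cinacalcet tumor 11 vehicle tumor 5 did. These values do not establish pairing, and the fit with the number as a block is given only where it moved a count. Other settings tried were filters, array normalizations, array weights, sample choices, the averaging of probe sets and each tumor left out.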

Additional observations from a re-analysis of the deposited data

Results flagged for a closer look

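In each group of 8 vehicle tumors, the highest or lowest value was set apart where its gap to the next tumor exceeded 0.526 of the whole range. This held for 13 of the 123 list levels and genes examined, where chance flags about 5% of groups. The prolonged group, with 3 tumors, was not examined. All values are log2 signals.

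Vehicle tumor 9 was high in the lists of lymphatic endothelium (4.44), mast cells (2.23) and B cells (4.31), and its B cell genes Cd79a (5.62) and Ms4a1 (5.84) stood out with them. The same tumor was high in Pla2g2d (5.98), S100a8 (2.87) and F10 (3.61). Vehicle tumor 5 was low in the matrix genes Col3a1 (4.30), Bgn (7.52) and Tnc (3.16). Vehicle tumor 12 was high in Il1rn (3.93), and vehicle tumor 7 in Hey1 (3.85).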

How the results depend on the processing

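Compartment medians kept their direction under each alternative run, except that of the vessel genes, which was -0.01 after quantile normalization. With 1 tumor left out they ran from 0.12 to 0.41 for stroma, 0.01 to 0.20 for vessels, 0.07 to 0.79 for myeloid genes, 0.05 to 0.82 for lymphoid genes and 0.24 to 0.40 for ER genes. The number of probe sets called ran from 0 to 19 with 1 tumor left out (19 without cinacalcet tumor 10, 2 without vehicle tumor 9, and 1 without cinacalcet tumor 11 or vehicle tumor 8) and was 0 otherwise. Without cinacalcet tumor 11, the 1 probe set was that of Mid1 (log2 difference 3.12, adjusted p = 0.0214 in limma). Tumor 11 is the one where Mid1 was within the vehicle range, so that p does not show a group difference.

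At an unadjusted p of 0.01 or less, the 110 higher probe sets became 376 with no filter, 222 with the signal filter alone and 211 with the replicate block, and ran from 75 to 181 with 1 tumor left out. The 25 lower ones became 231 with no filter, 117 with the signal filter alone, 38 with both filters taken over all probe sets, 10 among single-gene probe sets only, 14 with arrays centered on their medians, 41 with array weights and 39 with the replicate block, and ran from 16 to 34. More probe sets were tested with no filter and fewer among single-gene ones, and the cause of the other shifts was not tested. The block changed no call at an adjusted p under 0.05. Among single genes and lists, outside of leaving tumors out, 935 values kept their side of the threshold or moved by less than the spread, 25 passed an unadjusted p of 0.05 anew, 31 no longer did and 5 moved. The prolonged group has 3 tumors, and differences smaller than the spread between tumors were not detectable.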
